A study of Mus musculus with 33 samples.

Results

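The genes described here are 42 cell cycle genes, 20 of them active around the entry into and passage through S phase and 22 active in G2 and mitosis. They were taken from lists of textbook cell cycle genes by symbol, and all 42 were found among the 24054 gene symbols of the count files and passed the filter on low counts. Their RNA was measured in 33 libraries of 9 populations of mononuclear phagocytes that came from C57BL/6 mice aged 10 weeks, by sorting of kidney or spleen cells. Every population carried Clec9a-Cre/Cre Rosa-YFP/YFP, in which both copies of Clec9a, a gene of dendritic cell precursors and of cDC1, drive Cre recombinase and Cre switches on a YFP reporter, so that YFP marks cells whose history included expression of Clec9a. No population without these alleles was part of the comparisons. Kidney cells were CD45+ Ly6C- MHCII+. The macrophage gate was CD64+ F4/80hi CD11blow and is called F4/80hi here, with 3 YFP- and 3 YFP+ libraries. The gate CD64+ F4/80low CD11bhi is called CD11bhi, with 2 YFP- and 5 YFP+ libraries. Conventional dendritic cells type 1 (cDC1, 6 libraries) and type 2 (cDC2, 5 libraries) of the kidney were sorted as YFP+. Spleen gave 3 libraries each of cDC1, of cDC2 and of red pulp macrophages (RPM), the last sorted as autofluorescent F4/80+ YFP- cells. The labels do not say whether libraries of one population came from separate animals or from pools, so p-values measure the spread between libraries, which may be technical.

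Cells that enter the cycle first induce cyclin E and E2F1, load the MCM helicase on replication origins with CDC6 and CDT1, fire those origins with CDC45 and GINS, and copy DNA with PCNA at the fork. The mitotic genes follow: cyclin A, cyclin B and CDK1 start mitosis, Aurora and Polo kinases with kinesins and the chromosomal passenger complex build and watch the spindle, and the anaphase-promoting complex with CDC20 and UBE2C ends it. Resident tissue macrophages are known to renew slowly in place, whereas dendritic cells are short lived and are replenished from dividing precursors. In bulk libraries such as these, fewer cycling cells and less cell cycle RNA per cell cannot be told apart.

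Reads assigned to genes ranged from 8729224 to 23000575 per library, and the summed level of macrophage markers was 11782 to 16679 CPM (counts of a gene scaled to its library's TMM-adjusted total) in the libraries of RPM and F4/80hi cells against 1465 to 2896 in CD11bhi and 12.1 to 697 in cDC libraries. Markers of cDC1 summed to 5895 to 7555 CPM in both cDC1 populations and to no more than 261 CPM in both cDC2 populations, in keeping with the labels; cDC2 markers were also high in RPM (2752 to 3671 CPM against 1529 to 1866 CPM in spleen cDC2) and in CD11bhi (4666 to 6194 CPM against 4601 to 5620 CPM in kidney cDC2), and cDC1 markers summed to 1471 to 2013 CPM in RPM and F4/80hi. Library names begin with GS (21 libraries) or BS (12 libraries), and the CD11bhi gate holds BS libraries alone, whereas spleen populations and the F4/80hi gate hold GS libraries alone. The prefix was a term of every fit, which only the kidney cDC1 and cDC2 libraries, with both prefixes, can inform. The libraries kidney cDC2 3 and kidney cDC1 4 stood apart: transcripts under 1000 bases were high in them and transcripts over 5000 bases low. The 3 macrophage libraries of the sort labelled SR17_022 (RPM 3, F4/80hi YFP- 3 and F4/80hi YFP+ 3) also stood apart, with mitotic genes above those of the other macrophage libraries. In CD11bhi YFP+ 4, 45.8% of reads were unmapped and 64.0% lay outside the gene counts. Results that rest on these libraries are given with and without them.

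The promoters of the S phase and the mitotic members hold different short motifs. In dividing cells E2F proteins act through E2F sites, whereas the MuvB complex with B-MYB and FOXM1 acts through the cell cycle genes homology region (CHR), often near CCAAT boxes bound by NF-Y. Windows of 250 bases before to 50 bases after the start were read from RefSeq on GRCm38.p6, of which 35 members had one, and searched on both strands for E2F (TTTCCCGC, TTTCGCGC, TTTGCCGC or TTTGGCGC), CHR (TTTGAA or TTCGAA) and CCAAT; none of the motifs contains another, but matches on opposite strands can share bases. Each gene was counted once, by a motif in any of its windows, and 3 members had 2 windows. An E2F motif was found for 7 of 17 S phase genes (41.2%) and for 1 of 18 mitotic genes (5.56%), Cdk1, against 2.6% of 27025 genes with a window. Both a CHR and a CCAAT were found for 14 of 18 mitotic genes (77.8%) and for 3 of 17 S phase genes (17.6%), against 9.65% of all genes with a window. The 150 bases before the start of 6 members are printed 5′ to 3′ on the strand of the gene, with capitals for every motif base on either strand: the helicase genes Mcm6 (chr1:128359706-128359855, minus strand) and Mcm5 (chr8:75109359-75109508, plus strand) as S phase examples, Mki67 (chr7:135716380-135716529, minus strand), Top2a (chr11:99024190-99024339, minus strand) and Ccnb2 (chr9:70421555-70421704, minus strand) as mitotic examples, and Birc5 (chr11:117849087-117849236, plus strand) as a mitotic gene with none of the motifs in its window.
Mcm6: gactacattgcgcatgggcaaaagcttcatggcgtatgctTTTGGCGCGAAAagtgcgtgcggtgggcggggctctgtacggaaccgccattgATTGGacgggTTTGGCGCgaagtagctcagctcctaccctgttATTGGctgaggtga
Mcm5: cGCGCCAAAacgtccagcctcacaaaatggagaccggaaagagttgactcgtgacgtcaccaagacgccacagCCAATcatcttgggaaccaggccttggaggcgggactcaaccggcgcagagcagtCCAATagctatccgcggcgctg
Mki67: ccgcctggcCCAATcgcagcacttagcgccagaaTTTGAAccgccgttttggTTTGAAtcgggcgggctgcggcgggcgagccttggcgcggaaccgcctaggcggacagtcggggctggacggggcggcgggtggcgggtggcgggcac
Top2a: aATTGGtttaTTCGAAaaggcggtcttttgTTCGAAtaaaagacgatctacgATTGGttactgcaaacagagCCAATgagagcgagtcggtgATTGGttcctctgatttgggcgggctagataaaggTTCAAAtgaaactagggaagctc
Ccnb2: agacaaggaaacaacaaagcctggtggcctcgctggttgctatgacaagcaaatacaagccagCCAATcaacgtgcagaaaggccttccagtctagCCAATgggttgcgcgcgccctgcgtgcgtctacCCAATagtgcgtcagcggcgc
Birc5: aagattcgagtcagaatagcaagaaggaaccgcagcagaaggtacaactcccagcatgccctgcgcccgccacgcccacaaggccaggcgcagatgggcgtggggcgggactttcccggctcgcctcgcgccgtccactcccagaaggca
In Mcm6 the first run of capitals holds an E2F motif on each strand. Mki67 and Top2a carry CHR motifs and CCAAT boxes, Ccnb2 shows 3 CCAAT boxes here and its CHR lies elsewhere in its searched bases, and Birc5 shows none. A match of letters is a description of these windows and no record of binding.

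Summed over the 42 genes, the level was lowest in RPM, next lowest in both F4/80hi populations and highest in kidney cDC1. The sum was 567.7 ± 110 CPM in RPM (mean ± SD, n = 3), 973 ± 312 in F4/80hi YFP- (n = 3) and 894 ± 314 in F4/80hi YFP+ (n = 3). It was 2200 ± 441 in kidney cDC2 (n = 5), 2411 ± 388 in spleen cDC1 (n = 3), 2515 ± 259 in spleen cDC2 (n = 3), 2784 ± 173 over the 5 CD11bhi YFP+ libraries, 3206 ± 574 over the 2 CD11bhi YFP- libraries and 3654 ± 339 in kidney cDC1 (n = 6). Neighbours in this order from kidney cDC2 to CD11bhi YFP- lay within their spread of each other. In proportion, the mitotic genes differed more than the S phase genes. The mitotic sum over the S phase sum was 0.285 ± 0.134 in RPM, 0.312 in F4/80hi YFP- and 0.286 in F4/80hi YFP+. It was 0.578 ± 0.0612 in spleen cDC1, 0.648 ± 0.0755 in spleen cDC2 and 0.863 to 0.962 in CD11bhi cells and kidney cDCs. In kidney cDC1 it was 1.05, 1.06 and 1.196 in BS against 0.714, 0.779 and 0.969 in GS libraries. In kidney cDC2 it was 0.852 and 1.124 in BS against 0.726, 0.732 and 0.971 in GS libraries. The highest of these GS values were those of kidney cDC1 4 and kidney cDC2 3. The highest spleen value was 0.728. Spleen libraries are all GS and CD11bhi libraries all BS, and the part of the prefix in this ratio was not tested. The macrophage libraries of sort SR17_022 lay above the others: the mitotic sums were 93.8, 80.4 and 211 CPM in RPM, 144, 155 and 427 in F4/80hi YFP-, and 136, 108 and 388 in F4/80hi YFP+, with SR17_022 last in each.

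**Figure D1:**
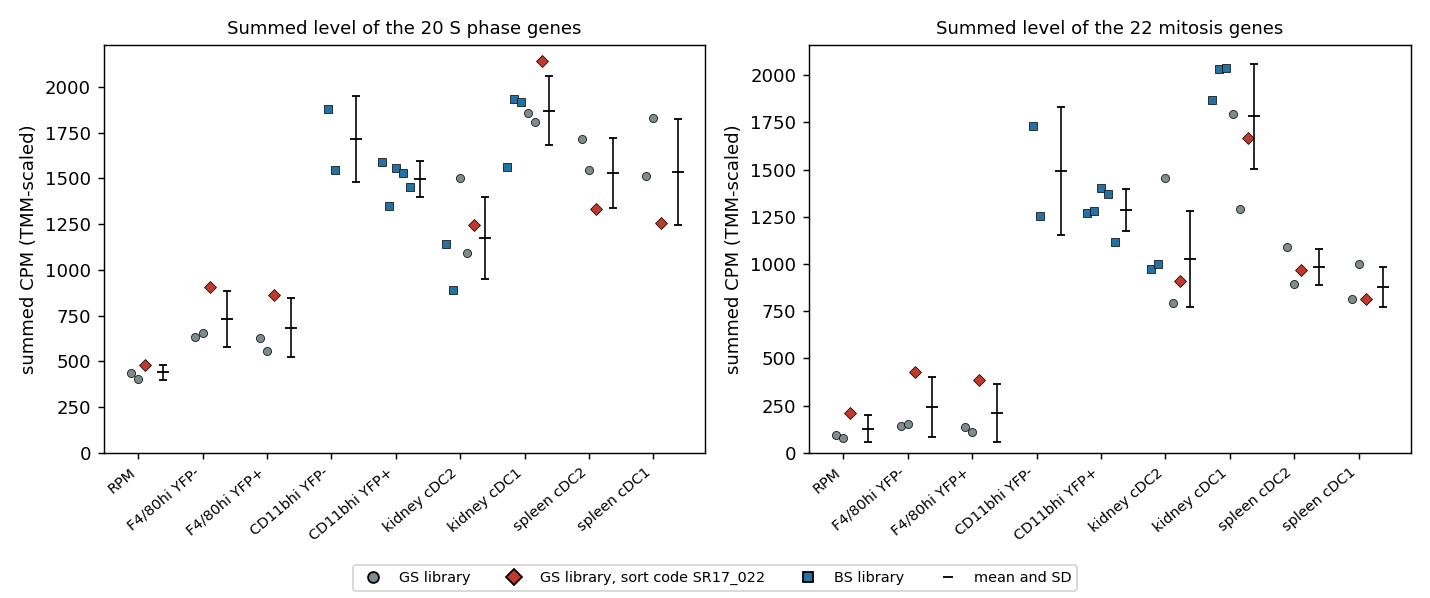
Summed CPM of the 20 S phase and of the 22 mitosis genes in each of the 33 libraries, by population. Grey circles are GS libraries, red diamonds GS libraries of sort SR17_022 and blue squares BS libraries, and bars give mean ± SD. RPM and F4/80hi libraries lie lowest in the mitosis panel, where their red diamonds lie above the circles. In the S phase panel kidney cDC2 2 (890.5 CPM) lies below F4/80hi YFP- 3 (906 CPM).

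All 42 genes differed among the 9 populations (edgeR quasi-likelihood F test, Benjamini-Hochberg adjusted p below 0.05), against 74.2% of the 14258 genes tested, so the count alone says little. The largest F was that of Aurkb (32.3) and the smallest were those of Cdt1 (2.92, adjusted p = 0.0247) and E2f1 (3.29, adjusted p = 0.0142). Of the 42, 23 (54.8%) were higher in every one of the 24 cDC and CD11bhi libraries than in every one of the 9 RPM and F4/80hi libraries, where 1.65% of all genes were. These were 6 S phase and 17 mitotic genes, and 0 genes lay the other way, against 2.38% of all genes. The highest population mean was in kidney cDC1 for 23 genes, CD11bhi YFP- for 15, spleen cDC2 for 3 and spleen cDC1 for 1, and the lowest was in RPM for 35. The means of CD11bhi YFP- rest on 2 libraries. These lay far apart for some of the 15, such as Cdc6 (62.9 and 5.94 CPM) and Kif11 (98.0 and 29.4). For others, such as Mcm3 (189 and 168), they lay close. The ratio of the highest to the lowest population mean had a median of 5.73 over the S phase genes (range 1.38 to 20.6) and 17.8 over the mitotic genes (range 7.63 to 34.4). The flattest genes were E2f1 (1.38), Pcna (2.30), Cdt1 (3.05), Rrm1 (3.30) and Fen1 (3.53), and the steepest were Nusap1 (34.4), Ube2c (27.4), Cdc20 (26.0) and Bub1 (25.1).

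**Figure D2:**
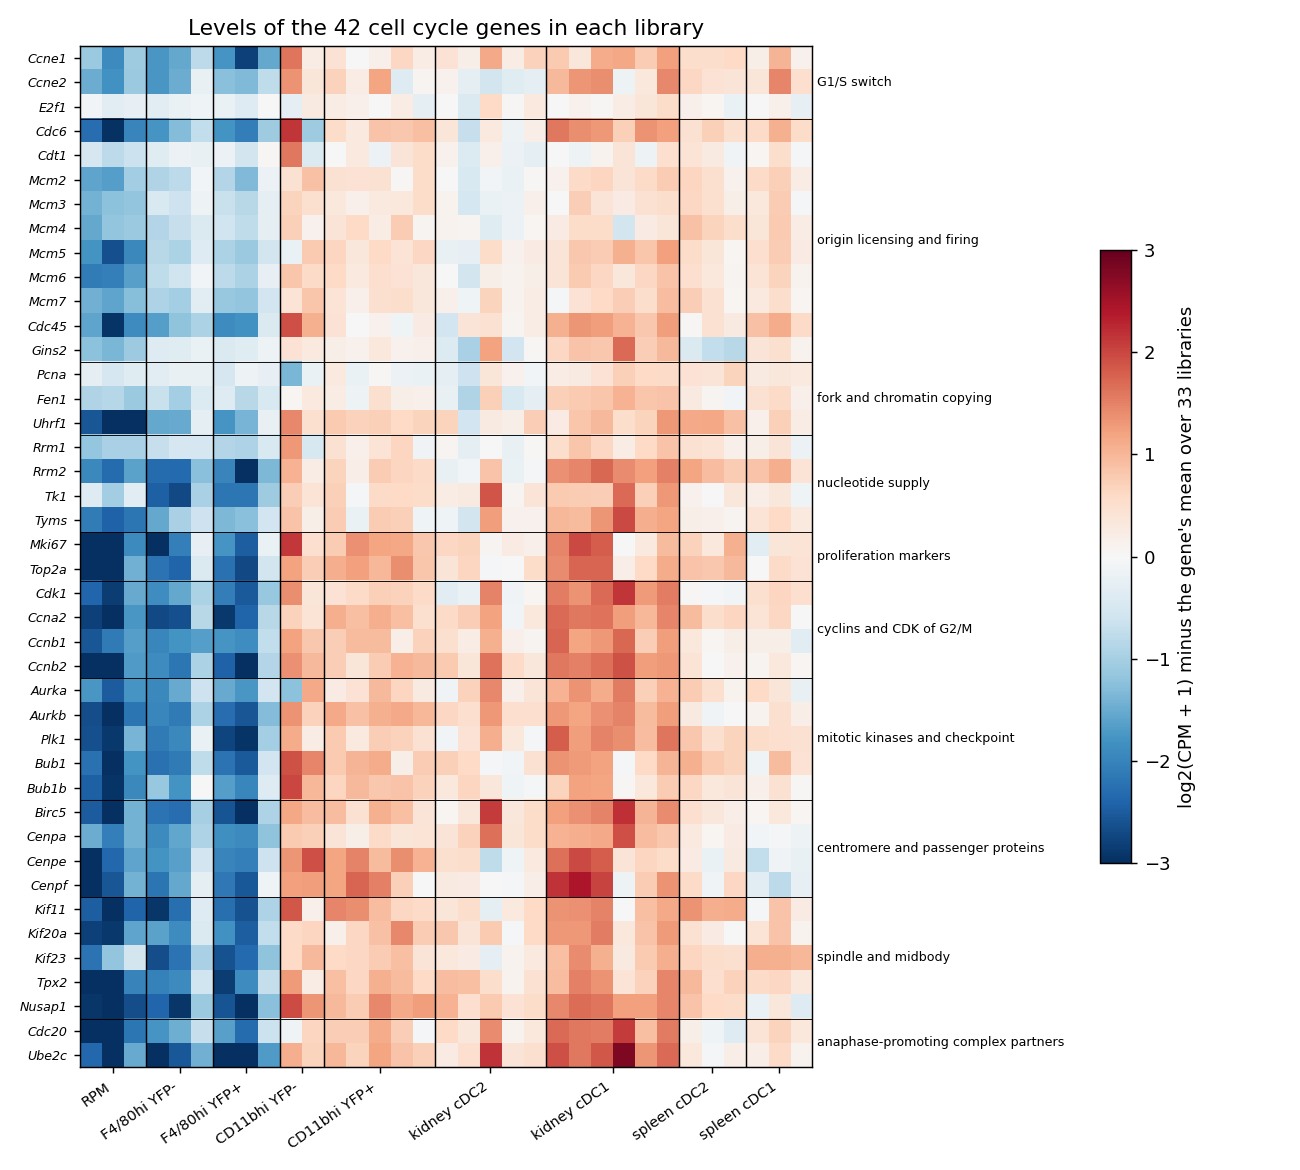
Level of each of the 42 genes (rows, by role) in each of the 33 libraries (columns, by population), as log2(CPM + 1) minus the mean of the gene over all libraries. RPM and F4/80hi columns are low for nearly all mitotic rows, their SR17_022 library less so, and the rows of E2f1 and Pcna vary least.

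The G1/S switch genes differed in how far they ranged. E2f1, the transcription factor that turns on S phase genes, is transcribed from the minus strand of chromosome 2 (154559407 to 154569892, GRCm38), had the highest level of its role group per length (mean 22.4 TPM, which also divides by transcript length, over the 9 populations) and was nearly flat. Its levels were 40.4, 33.2 and 35.8 CPM in RPM, 33.4, 36.9 and 38.7 in F4/80hi YFP- and 36.6, 32.1 and 42.1 in F4/80hi YFP+. They were 34.8 and 51.6 in CD11bhi YFP-, 49.5, 47.3, 42.8, 49.6 and 34.99 in CD11bhi YFP+, 42.5, 47.2 and 35.8 in spleen cDC1 and 47.4, 44.6 and 37.2 in spleen cDC2. Kidney cDC2 gave 42.2, 31.1, 64.4, 43.5 and 51.96 and kidney cDC1 42.3 to 62.6 with a median of 48.4. All populations overlapped with at least one macrophage population except kidney cDC1, whose lowest library lay just above the highest macrophage library. Cyclin E1, the CDK2 partner at the start of S phase, ran over a wider range, from 1.07 ± 0.838 CPM in F4/80hi YFP+ (mean ± SD, n = 3) to 15.8 ± 10.6 in CD11bhi YFP- (n = 2) and 14.1 ± 3.32 in kidney cDC1 (n = 6). Cyclin E2 averaged 8.26 ± 3.55 CPM in kidney cDC1 and 7.88 ± 4.07 in CD11bhi YFP-, against 2.89 ± 0.703 in kidney cDC2 (n = 5) and 0.710 ± 0.411 in RPM (n = 3).

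Among the 10 licensing and firing genes, Mcm6, a subunit of the replicative helicase (chromosome 1, 128331590 to 128359664, minus strand; mean 98.1 TPM), separated the populations in steps. RPM had the lowest levels, at 40.4, 41.7 and 56.1 CPM. F4/80hi cells followed, with 102, 115 and 165 in YFP- and 101, 90.2 and 146 in YFP+ libraries, none of which overlapped RPM. The other populations were mostly higher, with 249, 219 and 185 in spleen cDC2, 234, 279 and 188 in spleen cDC1 and 267, 215, 247, 238 and 221 in CD11bhi YFP+. CD11bhi YFP- gave 314 and 261, kidney cDC2 174, 118, 197, 188 and 197 and kidney cDC1 223 to 315 with a median of 271. A single library, kidney cDC2 2, fell into the F4/80hi range. Cdc45 and Gins2, which switch the loaded helicase on, were both highest in CD11bhi YFP- or kidney cDC1: Cdc45 averaged 50.1 ± 21.4 CPM in CD11bhi YFP- and 37.01 ± 4.80 in kidney cDC1 against 6.30 ± 1.76 in F4/80hi YFP-, and Gins2 averaged 34.8 ± 11.4 in kidney cDC1 against 6.66 ± 0.784 in RPM. Cdt1, the loading factor destroyed once S phase begins, ranged only from 13.4 ± 1.42 in RPM to 40.9 ± 35.5 in CD11bhi YFP- by population mean.

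Pcna, the sliding clamp of the replication fork (chromosome 2, 132249162 to 132253314, minus strand), had the highest level per length of the 11 genes given by library (mean 153 TPM). Its population means covered a 2.30-fold range, narrower than that of every other member but E2f1. Pcna stood at 34.9, 30.1 and 33.1 CPM in RPM, 34.4, 36.6 and 36.4 in F4/80hi YFP- and 29.8, 38.3 and 36.1 in F4/80hi YFP+. CD11bhi YFP- had 15.9 and 37.4, CD11bhi YFP+ 52.5, 37.4, 44.2, 38.05 and 37.05 and kidney cDC2 34.9, 27.4, 55.2, 47.02 and 40.8. Spleen cDC1 (51.7, 54.8 and 53.3), spleen cDC2 (58.7, 56.1 and 68.8) and kidney cDC1 (50.6 to 71.7 with a median of 61.3) lay above every macrophage library, whereas CD11bhi cells and kidney cDC2 overlapped the macrophages. Pcna has 2 named pseudogenes, so reads that fit several places may be missing from its counts, or part of its reads may not be its own. In spleen cDC2 1 Pcna (1260 bases) stood at 249.5 TPM and 58.7 CPM, whereas Cenpa (1337 bases) stood at 70.3 TPM and 51.4 CPM. The part of the pseudogenes was not tested. Uhrf1, which carries DNA methylation through replication, ranged more widely than Pcna, from 2.95 ± 0.886 CPM in RPM to 13.96 ± 8.23 in F4/80hi YFP- and 60.7 ± 6.61 in spleen cDC2.

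In nucleotide supply, Rrm2, the regulated subunit of ribonucleotide reductase (chromosome 12, 24708241 to 24714146, plus strand; mean 57.8 TPM), separated macrophages from the rest and kidney cDC1 from kidney cDC2. RPM had 14.7, 11.1 and 18.5 CPM, F4/80hi YFP- 11.1, 10.97 and 24.1 and F4/80hi YFP+ 14.3, 5.33 and 22.4. Spleen cDC2 had 134, 112 and 101, spleen cDC1 107, 128 and 78.3, CD11bhi YFP- 123 and 68.6 and CD11bhi YFP+ 93.9, 67.8, 101, 92.4 and 87.8. Kidney cDC2 had 50.1, 56.1, 108, 51.6 and 56.5 and kidney cDC1 140.0 to 197 with a median of 161. Every cDC and CD11bhi library lay above every macrophage library, and every kidney cDC1 library above every kidney cDC2 library, of which kidney cDC2 3 was the highest. Rrm1, the other subunit and less tied to S phase, ranged from 43.2 ± 3.14 CPM in RPM to 143 ± 112 in CD11bhi YFP-, a narrow range beside that of Rrm2. Within macrophages the thymidine kinase gene Tk1 averaged 16.1 ± 4.39 CPM in RPM, 6.10 ± 4.98 in F4/80hi YFP- and 6.67 ± 3.66 in F4/80hi YFP+, and the thymidylate synthase gene Tyms 4.98 ± 0.679, 13.1 ± 4.35 and 12.9 ± 4.30.

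Mki67 and Top2a are the usual RNA markers of dividing cells, and both have long transcripts. Mki67, which coats mitotic chromosomes (chromosome 7, 135689784 to 135716361, minus strand; mean 9.33 TPM), stood at 3.19, 2.86 and 10.02 CPM in RPM, 3.01, 8.91 and 33.6 in F4/80hi YFP- and 11.2, 6.40 and 34.7 in F4/80hi YFP+. The spleen gave 65.9, 50.4 and 84.8 in cDC2 and 31.4, 51.7 and 54.1 in cDC1, CD11bhi YFP- 179.5 and 57.8 and CD11bhi YFP+ 68.7, 106, 91.95, 91.4 and 70.9. Kidney cDC2 had 62.6, 64.98, 42.9, 48.1 and 44.4 and kidney cDC1 40.9 to 161 with a median of 95.3. The last value of each macrophage population, from sort SR17_022, was the highest of its population, and those of both F4/80hi populations lay above the lowest spleen cDC1 library. Top2a, which untangles copied DNA (chromosome 11, 98992943 to 99024189, minus strand; mean 24.5 TPM), stood at 4.63, 3.57 and 23.8 CPM in RPM, 13.4, 11.7 and 48.8 in F4/80hi YFP- and 13.2, 9.27 and 44.9 in F4/80hi YFP+. It was 121, 117 and 131 in spleen cDC2, 65.4, 98.4 and 88.98 in spleen cDC1, 154 and 111 in CD11bhi YFP- and 143, 157, 134, 177 and 119 in CD11bhi YFP+. Kidney cDC2 had 86.3, 103, 63.3, 65.3 and 96.7 and kidney cDC1 76.6 to 225 with a median of 161. For Top2a, unlike Mki67, every macrophage library lay below every other library. In kidney cDC1 both genes split by prefix: Mki67 was 112, 161 and 144 in BS libraries against 40.9, 49.4 and 78.6 in GS libraries, and Top2a was 179, 224 and 225 against 76.6, 101 and 144.

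**Figure D3:**
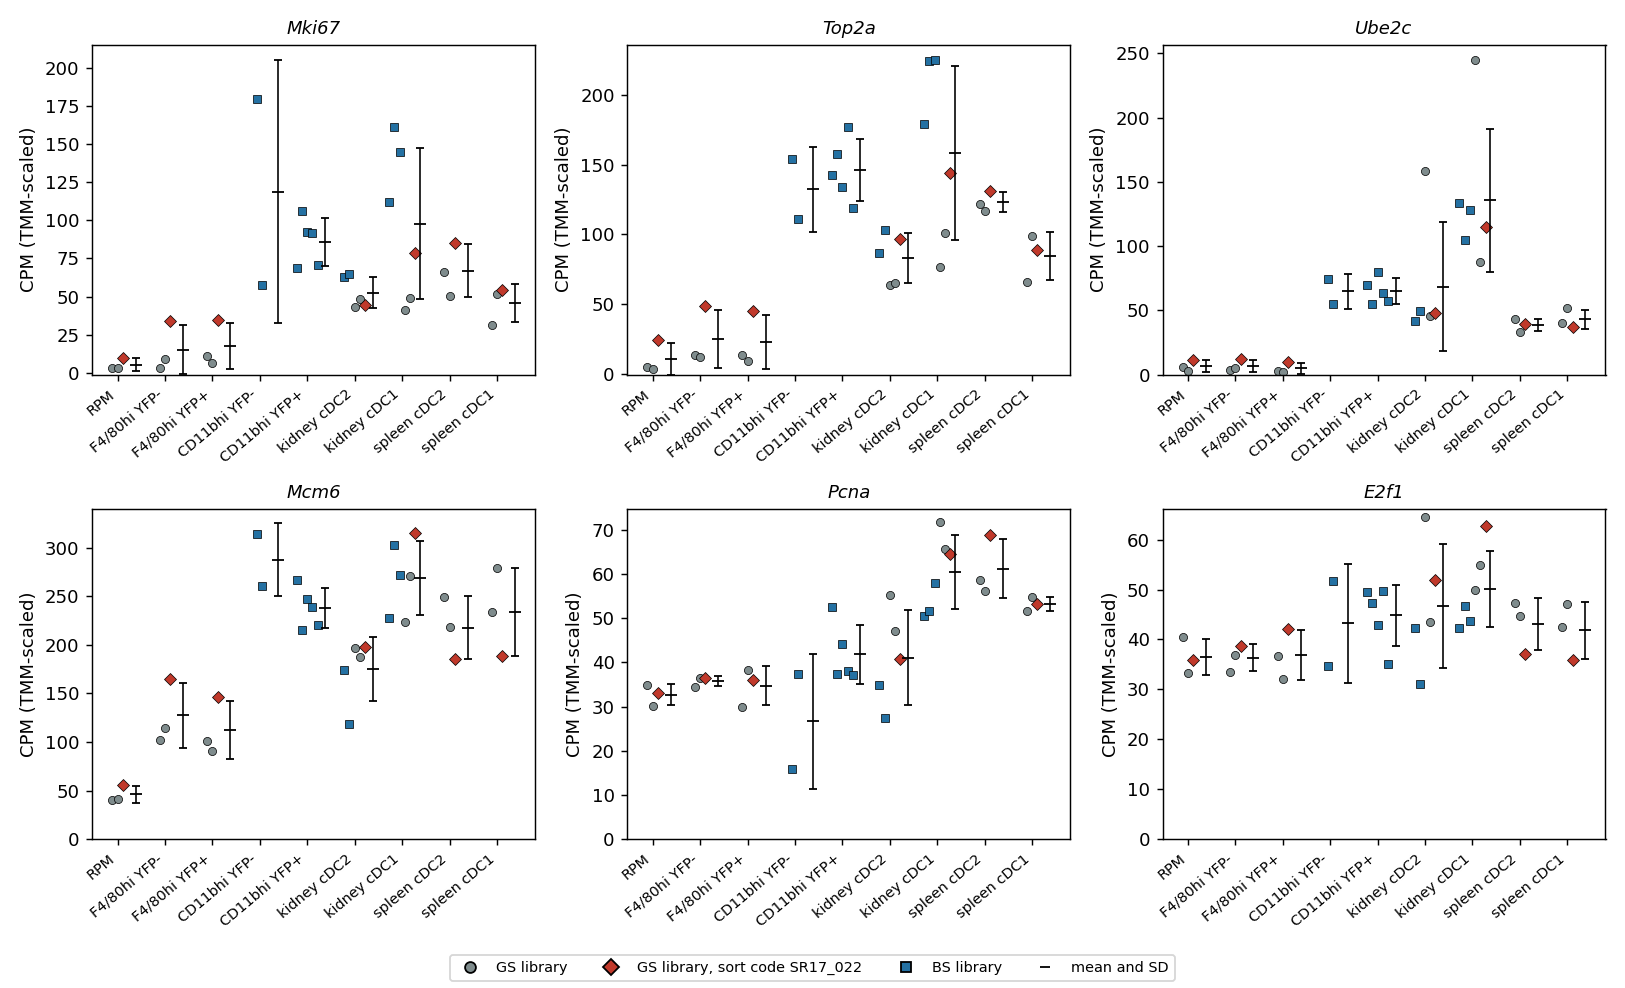
CPM of 6 of the genes in each library, by population, with grey circles for GS, red diamonds for GS of sort SR17_022, blue squares for BS, and bars for mean ± SD. The mitotic genes are low in RPM and F4/80hi cells, where the red diamonds are the highest points. In proportion, the population means of E2f1 and Pcna cover the narrowest ranges of the 6.

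All 4 cyclin and CDK genes of G2/M were called higher in CD11bhi cells than in F4/80hi macrophages of the same YFP state and higher in both kidney cDC populations than in F4/80hi YFP+, whereas Cdk1 alone of the 4 was called between kidney cDC1 and cDC2. Ccnb2, a cyclin B (chromosome 9, 70407692 to 70421547, minus strand; mean 51.6 TPM), stood at 2.89, 3.51 and 12.2 CPM in RPM, 10.5, 8.44 and 21.2 in F4/80hi YFP- and 6.96, 3.07 and 22.4 in F4/80hi YFP+. It was 55.4, 41.4 and 45.7 in spleen cDC2, 44.5, 52.4 and 43.7 in spleen cDC1, 109.5 and 82.5 in CD11bhi YFP- and 70.2, 53.6, 71.7, 86.9 and 83.4 in CD11bhi YFP+. Kidney cDC2 had 72.00, 54.1, 131, 62.05 and 52.6 and kidney cDC1 100.3 to 161 with a median of 124. No macrophage library reached any other library. Cdk1, its kinase partner, averaged 8.22 ± 4.66 CPM in F4/80hi YFP+ against 40.3 ± 27.4 in kidney cDC2 and 97.2 ± 22.8 in kidney cDC1, where it was highest.

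Aurkb, the kinase of the chromosomal passenger complex (chromosome 11, 69045647 to 69051664, plus strand; mean 35.8 TPM), had the largest F of the 42. It stood at 5.29, 3.44 and 7.74 CPM in RPM, 9.32, 8.18 and 19.7 in F4/80hi YFP- and 7.18, 5.73 and 15.1 in F4/80hi YFP+. The spleen gave 46.7, 36.1 and 38.3 in cDC2 and 41.9, 54.5 and 44.9 in cDC1, CD11bhi YFP- 100.3 and 63.4 and CD11bhi YFP+ 86.7, 72.5, 82.6, 86.5 and 77.9. Kidney cDC2 had 60.5, 55.1, 96.5, 55.1 and 55.8 and kidney cDC1 76.4 to 110.4 with a median of 95.6. The kidney libraries outside the macrophage gate lay above all spleen cDC libraries. Birc5, the passenger protein survivin (chromosome 11, 117849251 to 117855743, plus strand; mean 83.4 TPM), stood at 5.89, 2.66 and 13.6 CPM in RPM, 7.48, 7.05 and 18.5 in F4/80hi YFP- and 5.55, 3.67 and 19.6 in F4/80hi YFP+. It was 54.6, 48.6 and 44.1 in spleen cDC2, 39.96, 47.6 and 39.9 in spleen cDC1, 85.8 and 73.8 in CD11bhi YFP- and 73.8, 53.1, 81.1, 72.1 and 49.9 in CD11bhi YFP+. Kidney cDC2 had 39.6, 48.2, 168, 48.6 and 56.6 and kidney cDC1 77.7 to 178 with a median of 102. The highest value of kidney cDC2 came from kidney cDC2 3 and the highest of kidney cDC1 from kidney cDC1 4, the libraries in which short transcripts were high. The kinases Plk1 and Bub1 had the same order of macrophages below the rest, with Bub1, a sensor of unattached chromosomes, from 1.95 ± 1.63 CPM in RPM to 49.02 ± 11.1 in CD11bhi YFP-.

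Nusap1, which bundles spindle microtubules (chromosome 2, 119618298 to 119651244, plus strand; mean 24.1 TPM), had the widest range of all 42. It stood at 3.31, 1.56 and 4.22 CPM in RPM, 5.34, 3.32 and 14.2 in F4/80hi YFP- and 4.44, 2.87 and 12.6 in F4/80hi YFP+. The spleen gave 58.6, 48.5 and 46.7 in cDC2 and 27.6, 40.4 and 23.9 in cDC1, CD11bhi YFP- 127 and 81.01 and CD11bhi YFP+ 63.5, 54.4, 88.05, 71.4 and 77.01. Kidney cDC2 had 65.98, 45.6, 55.8, 43.5 and 46.8 and kidney cDC1 75.6 to 104 with a median of 88.8. Spleen cDC1 was the lowest population outside the macrophages, and its 3 libraries lay below all spleen cDC2 libraries. Ube2c, the ubiquitin-conjugating enzyme of the anaphase-promoting complex (chromosome 2, 164769898 to 164778822, plus strand; mean 79.9 TPM), has the shortest transcripts of the 42, with a mean of 931 bases. It stood at 5.89, 2.92 and 11.4 CPM in RPM, 3.50, 5.05 and 12.04 in F4/80hi YFP- and 3.03, 1.80 and 9.99 in F4/80hi YFP+. It was 43.03, 33.4 and 39.5 in spleen cDC2, 39.96, 51.5 and 37.3 in spleen cDC1, 74.3 and 55.1 in CD11bhi YFP- and 69.9, 55.00, 79.7, 63.5 and 57.2 in CD11bhi YFP+. Kidney cDC2 had 41.3, 49.3, 158, 45.5 and 48.1 and kidney cDC1 87.5 to 245 with a median of 121. Macrophages lay below every other library, and kidney cDC2 3 and kidney cDC1 4 were the highest of their populations. The exons of Nusap1 and Ube2c overlap a gene on the other strand (Oip5 and Tnnc2), and the counts used here do not separate strands, so part of their reads may belong to these neighbours. In all, 13 of the 42 overlap the exons of another gene and 4 have a named pseudogene. The 13 include Cdc45 (Ufd1), Gins2 (Gse1) and Tk1 (Afmid), each overlapping a gene on the other strand. Cdc45 and Gins2 are the only members called in some comparisons below, so the same limit holds there.

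In the kidney, the comparison of YFP+ with YFP- cells within a gate sets cells with a history of Clec9a expression against cells without the reporter signal. Whether some YFP- cells also had that history was not tested. In F4/80hi macrophages no member was called (adjusted p under 0.05 with a log2 fold of 1 or more in either direction), and 0 passed an unadjusted p of 0.05; DESeq2 also called 0, and 0.00701% of all genes were called. The median log2 fold was -0.18 and 30 of 42 were below 0. The largest were Plk1 (-1.07, SE 0.60) and Ccne1 (-1.06, SE 0.54). SEs of this size, from a fit that did not match libraries by sort code, would leave a 2-fold difference undetected. With the sort code as a replicate block, 0 members were called and the median was -0.18. Mitotic sums in YFP+ against YFP- cells were 136 and 144 CPM in sort SR17_017, 108 and 155 in SR17_036, and 388 and 427 in SR17_022. In CD11bhi cells Cdc45 was lower in YFP+ libraries, at 18.05 ± 2.94 CPM against 50.1 ± 21.4 (log2 fold -1.47, SE 0.37, adjusted p = 0.013, edgeR). It was the one member called, against 4.34% of genes higher and 1% lower, and 4 members had an unadjusted p under 0.05. The uncalled members with the largest values were Bub1 (-0.93) and Ccne1 (-0.84). Without CD11bhi YFP- 2, 1 of the 2 YFP- libraries, the count was 7 (2 higher, 5 lower), and in a fit of the CD11bhi libraries alone it was 0.

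CD11bhi cells had more cell cycle RNA than F4/80hi macrophages, with or without YFP. Among YFP+ cells 34 of 42 genes were higher and 0 lower, against 7.71% and 4.36% of all genes, with a median log2 fold of 1.99. The 34 were 14 S phase and 20 mitotic genes: 4 of 4 cyclin and CDK genes, 5 of 5 mitotic kinase and checkpoint genes, 5 of 5 spindle genes, 4 of 4 nucleotide supply genes and 7 of 10 licensing genes. Ube2c (log2 fold 4.26, SE 0.65, adjusted p = 2.37e-05, edgeR), Ccne1 (3.41, SE 0.63), Birc5 (3.38, SE 0.63) and Aurkb (3.21, SE 0.39, adjusted p = 7.1e-07) had the largest folds. Ccne2 (1.65, adjusted p = 0.113) and Cenpf (1.61, adjusted p = 0.19) were not called, and neither was Mki67 (1.35, SE 0.68, adjusted p = 0.181), whose F4/80hi YFP+ libraries ran from 6.40 to 34.7 CPM. Among YFP- cells 34 were higher and 0 lower, against 9.81% and 10.1% of all genes, with a median of 2.003. Ube2c (log2 fold 3.77, SE 0.69, adjusted p = 0.000211, edgeR), Nusap1 (3.52, SE 0.54), Birc5 (3.46, SE 0.69) and Ccnb1 (3.40, SE 0.53) led, and Mki67 (2.002, adjusted p = 0.0545) and Ccne2 (2.004, adjusted p = 0.0633) were not called. The log2 fold of Pcna was 0.03, with libraries of both groups overlapping. Every CD11bhi library is BS and every F4/80hi library GS, so the prefix correction here comes from the cDC libraries alone, and without it prefix and gate cannot be told apart. The 6 kidney tubule markers summed to 53.1 to 584 CPM in F4/80hi libraries against 0.938 to 14.8 in CD11bhi libraries (Umod and Kap at 0 in CD11bhi YFP-), and the 4 monocyte markers to 349 to 641 CPM against 1302 to 1979; their part in the result was not tested. Without the 7 libraries of sort SR17_022 the counts were 36 and 36 and folds were larger (Ube2c 5.51, SE 0.61, among YFP+ cells), and in fits of the 2 YFP- groups alone, with no prefix term, 16 were called.

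Kidney cDCs likewise exceeded F4/80hi YFP+ macrophages, kidney cDC1 in almost every gene. Kidney cDC2 had 29 genes higher (9 S phase, 20 mitotic) and 0 lower, against 10.5% and 8.87% of all genes, with a median log2 fold of 1.71. By role these were 20 of 22 mitotic genes but only 4 of 10 licensing genes and 1 of 3 fork genes. The largest were Ube2c (log2 fold 3.96, SE 0.56, adjusted p = 2.23e-06, edgeR), Ccne1 (3.47, SE 0.54), Birc5 (3.08, SE 0.53) and Nusap1 (2.85, SE 0.42); Mki67 (1.21, adjusted p = 0.0983) and Cenpf (1.15, adjusted p = 0.197) were not called. Without kidney cDC2 3 and kidney cDC1 4 the Ube2c fold was 3.14 (SE 0.46), still called. Kidney cDC1 had 39 genes higher (17 S phase, 22 of 22 mitotic) and 0 lower, against 14% and 14.9%, with a median of 2.53. Ube2c (log2 fold 5.05, SE 0.59, adjusted p = 5.99e-08, edgeR), Ccne1 (3.90, SE 0.55), Plk1 (3.87, SE 0.63) and Cdk1 (3.82, SE 0.44) led. The 3 uncalled genes were Mcm4 (0.65, adjusted p = 0.0141), E2f1 (0.64, adjusted p = 0.00432) and Cdt1 (0.44), of which the first 2 passed the p but not the fold.

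CD11bhi YFP+ cells were compared with both kidney cDC populations, and few differences were found. Against kidney cDC2, 0 members were called, by edgeR or DESeq2, where 1.47% of all genes were higher and 1.05% lower; 6 had an unadjusted p under 0.05, and 2 were called, both higher, in a fit of these groups alone. The median log2 fold was 0.33, and the nearest to a call was Mcm5, a helicase subunit (log2 fold 0.71, SE 0.21, adjusted p = 0.0508, edgeR). Against kidney cDC1 Cdc45 was lower (log2 fold -1.02, SE 0.31, adjusted p = 0.0157, edgeR), the 1 member called, where 10.8% of all genes were higher and 4.99% lower. Cdc20 (-0.86, adjusted p = 0.0563) and Plk1 (-0.85) were the largest uncalled values and the median was -0.47. The Cdc45 call was lost under 9 of the alternatives, among them leaving out CD11bhi YFP+ 2, CD11bhi YFP+ 4, kidney cDC1 2 or kidney cDC1 3, each giving 0 members.

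**Figure D4:**
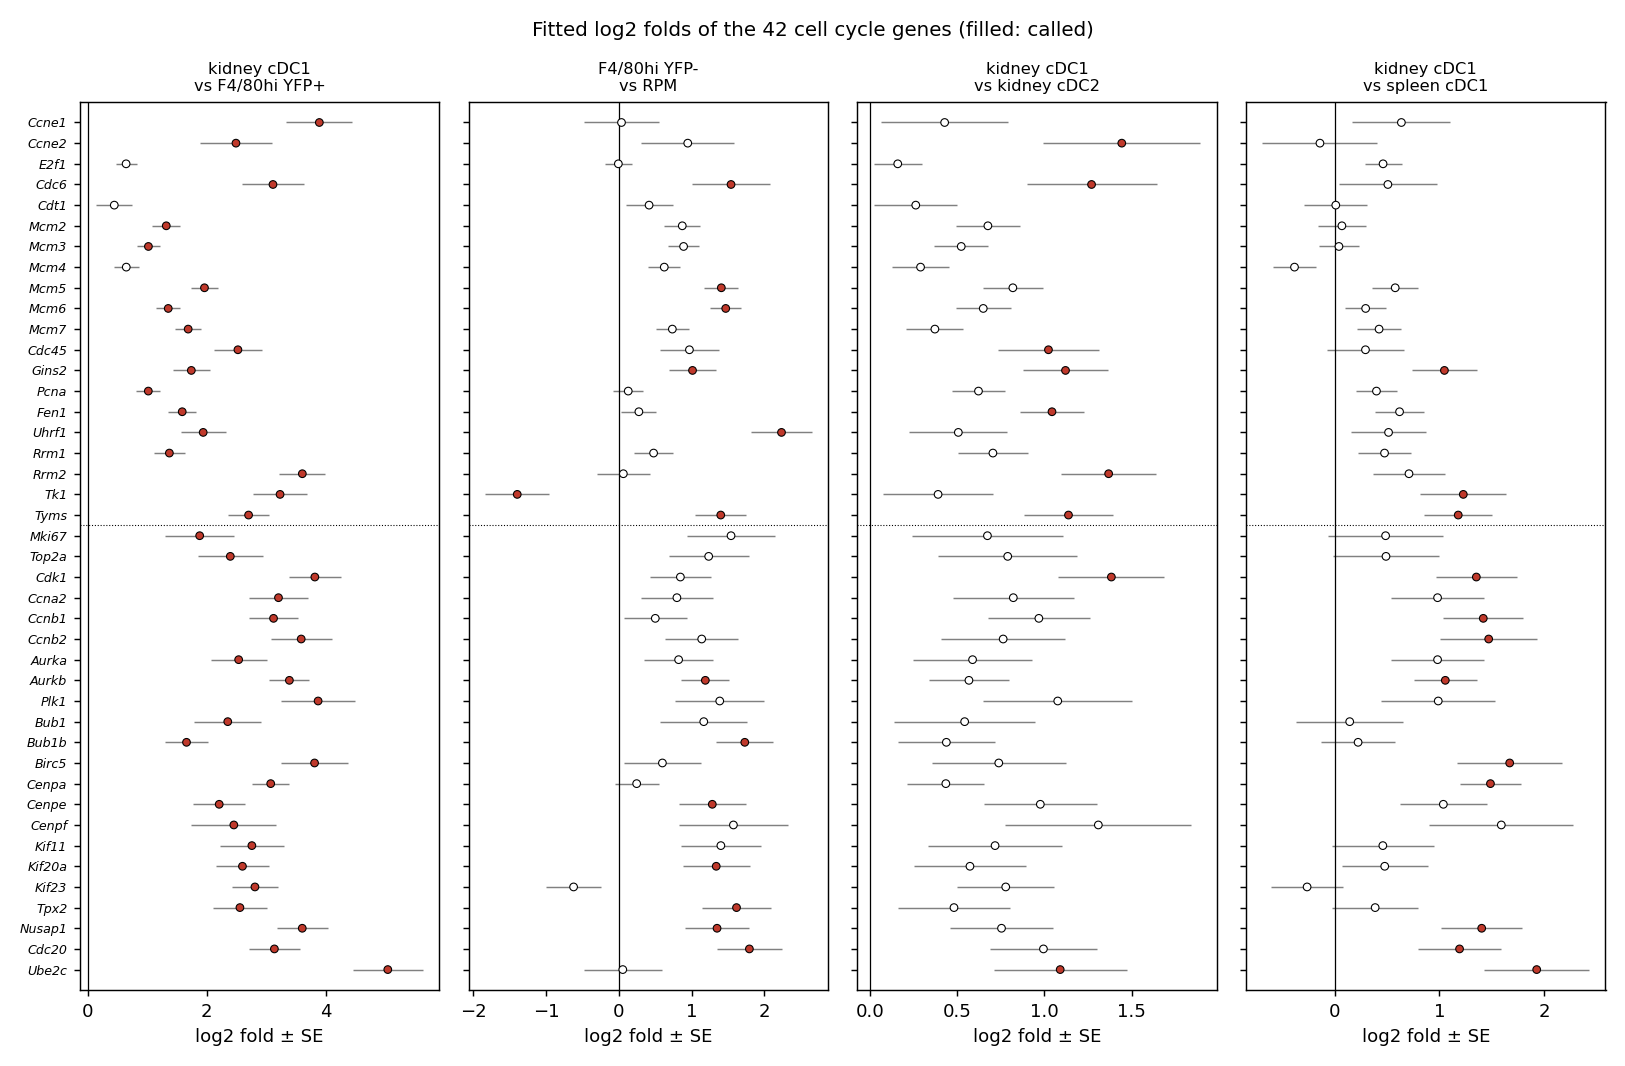
Log2 fold ± SE of each of the 42 genes in 4 comparisons, S phase genes above the dotted line, with filled points for genes called at an adjusted p under 0.05 with a log2 fold of 1 or more either way. Kidney cDC1 exceeded F4/80hi YFP+ macrophages in 39 genes and kidney cDC2 in 9, and all 42 points of both these panels lie right of 0.

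Within the kidney, cDC1 had more cell cycle RNA than cDC2. Of the 42 genes 9 were higher and 0 lower, against 5.48% and 10.2% of all genes, and all 42 folds were above 0 with a median of 0.73. The 9 were 7 S phase genes, Ccne2 (log2 fold 1.44, SE 0.45, adjusted p = 0.0159, edgeR), Rrm2 (1.37, SE 0.27, adjusted p = 0.000245), Cdc6 (1.27, SE 0.37), Tyms (1.14), Gins2 (1.12), Fen1 (1.04) and Cdc45 (1.02), and 2 mitotic genes, Cdk1 (1.38, SE 0.30, adjusted p = 0.00078) and Ube2c (1.09, SE 0.38). Tyms makes thymidylate, Cdc6 loads the helicase and Fen1 trims Okazaki fragments. Cenpf (1.31, adjusted p = 0.0681) and Plk1 (1.08, adjusted p = 0.0604) were the largest uncalled values. Without kidney cDC2 3 and kidney cDC1 4 these 9 and 6 more were called, the 6 all mitotic (Cenpf, Birc5, Ccnb1, Ccna2, Cdc20 and Plk1), and the median was 0.84. The count was 15 also without kidney cDC2 3 alone, 4 without kidney cDC2 2, 15 in the BS libraries and 1 in the GS libraries.

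In the spleen, cDC1 and cDC2 differed in 1 member, Gins2, which was higher in cDC1 (log2 fold 1.06, SE 0.32, adjusted p = 0.0165, edgeR), against 6.32% of all genes higher and 8.3% lower; the median was -0.10. The call was lost without spleen cDC2 2, spleen cDC2 3 or spleen cDC1 2, each giving 0. Whether the split between cDC1 and cDC2 differed between kidney and spleen was tested as an interaction. Rrm2 was called (log2 fold 1.52, SE 0.44, adjusted p = 0.0335, edgeR), against 1.67% of all genes higher and 3.57% lower. It was higher in kidney cDC1 than in kidney cDC2, whereas its log2 fold of spleen cDC1 over spleen cDC2 was -0.15. The median of the 42 interactions was 0.78, with Cenpf (2.21, adjusted p = 0.159) and Kif11 (1.51) the largest uncalled. The Rrm2 value was not called with the sort code as a replicate block (1.42, adjusted p = 0.0612), in GS libraries alone (1.27, adjusted p = 0.247) or without SR17_022 (1.40, SE 0.45, adjusted p = 0.111), by edgeR. Without kidney cDC2 3 and kidney cDC1 4 it was 1.76 (SE 0.42, adjusted p = 0.00763), whereas leaving out any one of spleen cDC2 1 or 2, spleen cDC1 1 or 3, or kidney cDC2 1, 2, 4 or 5 gave 0 calls.

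The genes called higher in kidney cDC1 than in spleen cDC1 were mostly mitotic, and many had short transcripts. Of the 42 genes 12 were higher (3 S phase, 9 mitotic) and 0 lower, against 6.66% and 4.45% of all genes, with a median of 0.55. Ube2c (log2 fold 1.93, SE 0.50, adjusted p = 0.00684, edgeR), Birc5 (1.67, SE 0.50), Cenpa, the histone of the centromere (1.49, SE 0.29), and Ccnb2 (1.47, SE 0.46) led, followed by Ccnb1, Nusap1, Cdk1, Tk1, Cdc20, Tyms, Aurkb and Gins2. Ube2c, Birc5, Gins2, Cenpa, Tk1, Ccnb2 and Cdc20 have mean transcript lengths of 931 to 1784 bases. Those of Aurkb, Ccnb1, Cdk1, Nusap1 and Tyms are 1957 to 3799 bases, and the part of length was not tested. The count depended on kidney cDC1 4: it was 4 without that library and 2 without it and kidney cDC2 3, namely Nusap1 (1.36, SE 0.41, adjusted p = 0.0282) and Ube2c (1.28, SE 0.43, adjusted p = 0.0482). It was 7 without spleen cDC1 1, 2 without spleen cDC1 3 and 5 in the GS libraries, with a median between 0.43 and 0.63 in all of these. Kidney cDC2 and spleen cDC2 differed in 0 members by edgeR or DESeq2, against 11.9% of all genes higher and 6.9% lower; 12 had an unadjusted p under 0.05 and the median was -0.23. The largest were Ccne2 (-1.16, adjusted p = 0.106) and Kif11, a spindle motor (-1.05, adjusted p = 0.0851). Rrm2 was lower in kidney cDC2 without kidney cDC2 3 and kidney cDC1 4 (-1.20, SE 0.33, adjusted p = 0.00892), the 1 member then called. Leaving out 1 library gave 1 call instead of 0 without spleen cDC2 1 or kidney cDC2 2, 4 or 5 (higher in kidney) and without spleen cDC2 3 or kidney cDC2 3 (lower).

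Among macrophages, those of the kidney had more cell cycle RNA than RPM in part of the list. F4/80hi YFP- cells had 13 genes higher and 1 lower than RPM, against 11.1% and 9.02% of all genes, with a median of 0.96. The higher genes were Uhrf1 (log2 fold 2.24, SE 0.41, adjusted p = 0.000123, edgeR), Cdc20 (1.79, SE 0.44), Bub1b (1.73, SE 0.39) and Tpx2 (1.62, SE 0.47) in order of size, then Cdc6, Mcm6, Mcm5, Tyms, Nusap1, Kif20a, Cenpe, Aurkb and Gins2. Tk1 was lower (log2 fold -1.39, SE 0.44, adjusted p = 0.0186, edgeR), although the libraries of both groups overlapped. Cenpf (1.57, adjusted p = 0.12) and Mki67 (1.54, adjusted p = 0.0589) were the largest uncalled values. The count was 7 without RPM 2, 8 without F4/80hi YFP- 3 and 20, all higher, without RPM 3. Without all libraries of sort SR17_022 it was 11, of which 9 were among the 14, and Aurkb, Cdc6, Nusap1, Tyms and Gins2 were not called. In the spleen, cDC2 exceeded RPM in 37 genes (15 S phase, 22 mitotic) and were lower in 0, against 14.5% and 15.5% of all genes, with a median of 2.68. Uhrf1 (log2 fold 4.35, SE 0.44, adjusted p = 3.91e-09, edgeR), Kif11 (4.14, SE 0.59), Nusap1 (4.09, SE 0.46) and Bub1 (3.80, SE 0.62) led. The 5 uncalled genes were Cdt1 (0.91), Pcna (0.90), Tk1 (0.75), Gins2 (0.64) and E2f1 (0.24).

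Another 87 cell cycle genes, 86 of which were tested, were taken as the surroundings of the pathway. Of these, 37 were higher and 0 lower in CD11bhi YFP+ than in F4/80hi YFP+, 38 and 2 in CD11bhi YFP- against F4/80hi YFP-, 33 and 3 in kidney cDC2 and 50 and 6 in kidney cDC1 against F4/80hi YFP+, 27 and 2 in F4/80hi YFP- against RPM and 56 and 1 in spleen cDC2 against RPM. The shares of all genes called higher in these 6 contrasts were 7.71%, 9.81%, 10.5%, 14%, 11.1% and 14.5%, and lower 4.36%, 10.1%, 8.87%, 14.9%, 9.02% and 15.5%. Between YFP+ and YFP- cells of either kidney gate, edgeR called 0 of the 86. Foxm1, the transcription factor of mitotic genes, was higher in spleen cDC2 than in RPM (log2 fold 5.03, SE 0.73, adjusted p = 2.17e-06, edgeR), and Mybl2, which encodes B-MYB, was higher in CD11bhi YFP+ than in F4/80hi YFP+ (3.37, SE 0.76). The kinetochore gene Spc24 was higher in kidney cDC1 than in F4/80hi YFP+ (4.13, SE 0.50). In F4/80hi YFP- against RPM, the separase gene Espl1 (4.498, SE 0.60), E2f8 (3.51, SE 0.63), a repressor of the E2F family, and Anln, a cytokinesis gene (3.49, SE 0.85), were higher.

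The D cyclins, their kinases and the CDK inhibitors, which govern exit from G1, varied from gene to gene. Cdkn2c, a CDK inhibitor, averaged 5.66 ± 1.21 CPM in RPM, 9.70 ± 2.06 in F4/80hi YFP-, 11.03 ± 2.16 in F4/80hi YFP+ and 27.8 ± 5.78 for cDC1 of the kidney, lowest in macrophages like most of the 42. Ccnd2 averaged 576 ± 108 CPM in kidney cDC2 and 53.5 ± 21.1 in kidney cDC1 (log2 fold -3.44, SE 0.28, adjusted p = 4.73e-11, edgeR). It was also higher in RPM, at 367 ± 13.5 CPM, than in spleen cDC2, at 98.5 ± 17.8 (-1.90, SE 0.36), although RPM had the least RNA of the 42. Cdkn1a, which encodes the CDK inhibitor p21, averaged 397 ± 41.6 in kidney cDC2 against 63.5 ± 13.2 in kidney cDC1 (-2.63, SE 0.25, adjusted p = 1.37e-09), and Cdkn2d, another inhibitor, was lower in kidney cDC1 as well (-2.06, SE 0.21). Rb1, the pocket protein that holds E2F, was also lower in kidney cDC1 (-1.15). Ccnd3 averaged 251 ± 73.5 CPM in kidney cDC2 against 24.7 ± 4.27 in F4/80hi YFP+ (3.52, SE 0.21). Cdk6, a kinase of D cyclins, went the other way, at 82.6 ± 7.42 CPM in F4/80hi YFP+ against 9.98 ± 6.92 in kidney cDC2 (-2.88, SE 0.32), and was higher in F4/80hi YFP- than in RPM (3.24, SE 0.38).

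The length of transcripts moved with the values in the libraries kidney cDC2 3 and kidney cDC1 4. The median log2 difference from the other libraries of the population was 0.96 in kidney cDC2 3 and 0.90 in kidney cDC1 4 for the 1250 genes under 1000 bases, and -0.49 and -0.52 for the 2160 genes over 5000 bases. The gap between long and short genes was -1.45 and -1.42, next -0.83 in RPM 1 and between -0.27 and 0.68 in the other 30 libraries. Members at the ends of the length range differed in these libraries: in kidney cDC1 4 Ube2c (931 bases) was 1.12 and Birc5 (1011 bases) 0.90 above the other kidney cDC1 libraries on the log2 scale, whereas Cenpf (11122 bases) was -1.94 and Mki67 (10075 bases) -1.28. In kidney cDC2 3 Ube2c was 1.77 and Birc5 1.80, and Cenpf -0.16 and Mki67 -0.34. Members of middle length were also high in kidney cDC2 3, such as Cdk1 (2860 bases) at 1.65, Tyms (3799 bases) at 1.37 and Fen1 (2174 bases) at 1.19. Against the other GS kidney cDC2 libraries, its 17 mitotic members of 1000 to 5000 bases had a median of 0.96 and all genes of that length -0.07. Kidney cDC1 4 also held kidney tubule markers, summed at 728 CPM against 1.45 to 6.88 in the other kidney cDC1 libraries; their part in the values of the 42 was not tested. Between BS and GS libraries of kidney cDC1 the 4 members over 5000 bases had a median log2 difference of 1.32 against 0.29 for all genes of that length, and the 17 mitotic members of 1000 to 5000 bases had 0.21. The prefix term itself was called for 1 member, Cenpe (1.04, SE 0.32, adjusted p = 0.0499, higher in BS), and 0 were lower, against 0.309% and 0.884% of all genes.

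**Figure D5:**
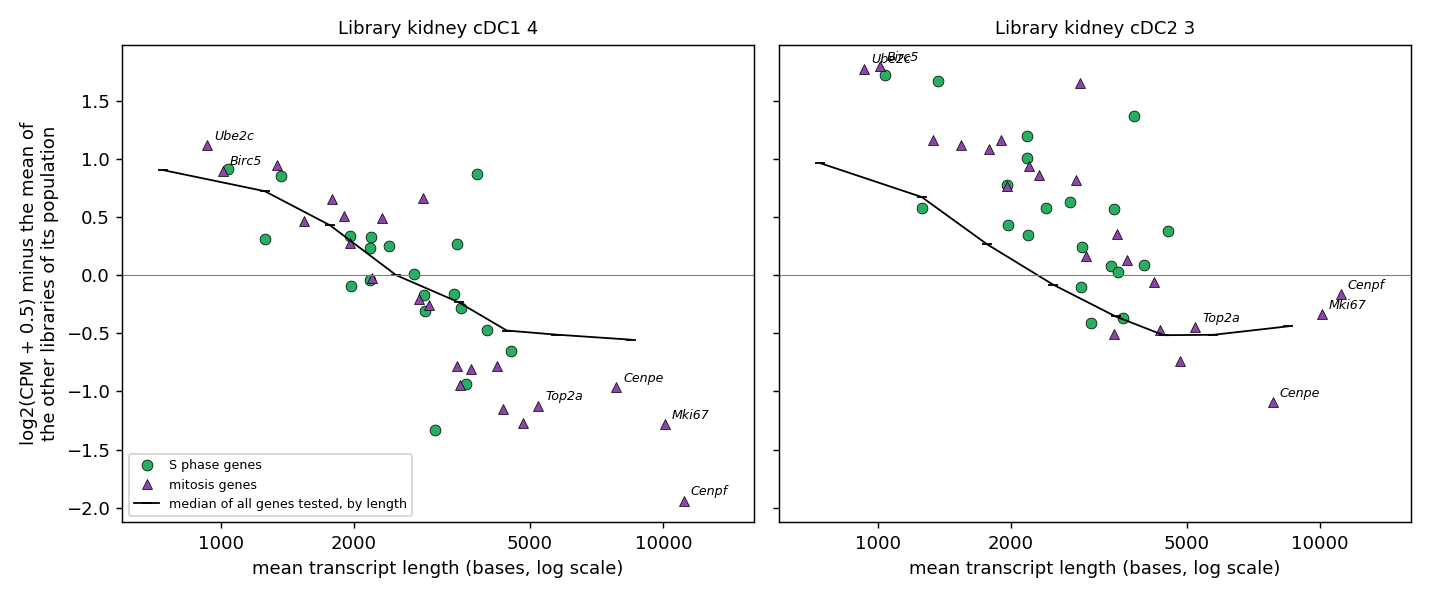
Log2 difference of each gene from the mean of the other libraries of its population in kidney cDC2 3 and kidney cDC1 4, against mean transcript length in bases (log axis), for S phase genes (green circles) and mitotic genes (purple triangles), with the median of all tested genes as a black line. Ube2c and Birc5, at the left, lie above 0 and the 4 members over 5000 bases below it in both libraries, as the line of medians does.

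In the sort labelled SR17_022, mitotic genes were high in the macrophage libraries. Its library was the highest of 3 for 21 of 22 mitotic genes in RPM, 22 of 22 in F4/80hi YFP- and 22 of 22 in F4/80hi YFP+, with median ratios to the mean of the other libraries of 2.67, 2.79 and 3.32. In spleen cDC2 it was highest for 4 of 22 (ratio 0.938) and in spleen cDC1 for 2 of 22 (0.906). Among GS libraries of the kidney it was highest for 6 of 22 in cDC2 (0.826) and 12 of 22 in cDC1 (1.22). The mitotic members of 1000 to 5000 bases were 1.18, 1.37 and 1.504 above the other macrophage libraries on the log2 scale in RPM, F4/80hi YFP- and F4/80hi YFP+, by median. Ube2c was 1.35, 1.41 and 1.88 above. The 4 members over 5000 bases had medians of 1.92, 1.80 and 1.97, against 0.35, 0.25 and 0.24 for all genes of that length. All genes under 1000 bases had medians of -0.11, -0.05 and -0.03. The part of length was not tested. The summed cDC markers of the SR17_022 library lay within the range of the others in RPM (144 CPM against 195 and 133). In F4/80hi cells they were the highest, by a small margin (317 CPM against 302 and 262 in YFP-, and 309 against 307 and 245 in YFP+). Monocyte markers lay within or below the range of the others (17.8 CPM in RPM against 79.0 and 17.5, and 375 in F4/80hi YFP- against 588 and 641). Erythroid markers were higher in RPM 3, at 71.6 CPM against 27.8 and 36.4. Unmapped reads were 7.08% to 8.44% in the 7 SR17_022 libraries against 1.83% to 2.995% in the other GS libraries, F4/80hi YFP+ 1 (10.9%) aside. The part of these markers and reads in the values was not tested. Without the SR17_022 libraries all 4 contrasts of kidney CD11bhi cells and cDCs with F4/80hi macrophages kept a count of 31 or more, and spleen cDC2 against RPM gave 37.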

How the data were processed

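RNA of 33 sorted libraries was selected for polyA and amplified with SMARTseq v4, per the labels' protocols. The authors deposited 3 kinds of value. STAR gave gene counts and RSEM gave expected counts for each library, on the build mm10, as the submitters' processing notes of the authors list them, and versions of both tools are not given in the sources used here. A joint table gave TPM per gene, deposited by the authors, which equalled the RSEM TPM of each library; the mean transcript length (unit other) came from the deposited RSEM files. From the STAR file the unstranded count column was used, since the labels name no step that keeps strand, and rows that name no gene (22.6% to 64.0% of reads) were left out.

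Counts were tested with edgeR 4.0.16 in R 4.3.3 (filterByExpr with a minimum count of 10 and total of 15, TMM scaling, quasi-likelihood fit over all 33 libraries with population and name prefix as terms). A gene was called at a Benjamini-Hochberg adjusted p below 0.05 over 14258 genes with a log2 fold of 1 or more in either direction. CPM are TMM scaled, and SEs are the log2 fold divided by the root of F. Samples were grouped by the sorting strategy in the labels. The scripts were tested on simulated data with known changes. The alternatives were DESeq2 1.42.0, no filter, no prefix term, the sort code as a replicate block, RSEM expected counts rounded to whole numbers, limma 3.58.1 on log2(TPM + 1), the compared groups alone, GS or BS libraries alone, and leaving out each library; leaving out sort SR17_022 and leaving out kidney cDC2 3 with kidney cDC1 4 were added after the data were seen. What the prefix and the sort code stand for is not given in the labels.

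The 42 genes and the other lists were chosen with earlier results of these data known. Libraries were given one by one for Mki67, Top2a and the gene of each role group with the highest mean TPM. In a comparison the called genes with the largest absolute log2 fold were named, up to 4 in each direction, with up to 2 uncalled ones; genes called in counts of 14 or fewer were also listed, chosen after their values were seen. Of the other cell cycle genes only called ones were named.

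Libraries of one sort code were treated as possible pairs. Their deviations from the population means correlated in all 3 pairs at 0.112 to 0.426 between F4/80hi YFP+ and YFP-. The range was 0.126 to 0.299 between spleen cDC1 and cDC2, and 0.101 to 0.124 between kidney and spleen cDC2. Other comparisons reached lower values, such as 0.097 to 0.211 between spleen cDC2 and RPM and -0.224 to -0.208 between CD11bhi YFP+ and YFP-. Libraries of different sort codes were not correlated, so whether sort codes pair libraries was not tested. A mean ± SD covers the spread of libraries, and the depth of 8729224 to 23000575 gene reads sets how finely low levels are measured.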

Additional observations from a re-analysis of the deposited data

Results flagged for a closer look

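Of 42 sets of 5 or 6 libraries looked at for a library far from the others, 9 had one (the gap to the nearest library over the range above the critical value of Dixon's test). The sets are 14 values, 11 genes and sums that include them, in CD11bhi YFP+, kidney cDC2 and kidney cDC1. For a single set chance gives about 1 in 20. These sets share libraries and most of the 9 came from 2 libraries, so their number cannot be compared with that rate. In kidney cDC2, the library kidney cDC2 3 was the highest of 5 for Ube2c (158 CPM, others 41.3 to 49.3), Birc5 (168, others 39.6 to 56.6), Ccnb2 (131, others 52.6 to 72.0), Aurkb (96.5, others 55.1 to 60.5) and Rrm2 (108, others 50.1 to 56.5), and the sum of all 42 genes was 2958 CPM there against 1886 to 2155. The library kidney cDC2 2 was the lowest of 5 for Mcm6 (118 CPM, others 174 to 197). In kidney cDC1, the library kidney cDC1 4 was the highest of 6 for Ube2c (245 CPM, others 87.5 to 134) and Birc5 (178, others 77.7 to 108). Kidney cDC2 3 and kidney cDC1 4 are the libraries in which short transcripts were high, and the part of length in these values was not tested.

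The test of the difference between the cDC1-cDC2 splits of kidney and spleen called Rrm2, at 1.52 on the log2 scale (SE 0.44, edgeR adjusted p = 0.0335). The call was lost with the sort code as a replicate block, in GS libraries alone, without SR17_022 and without any one of 8 single libraries.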

How the results depend on the processing

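Counts of members called within 1.5 times those of the report held in most alternatives. The 37 named results are each a gene in a comparison, so that a gene can occur more than once, and none reversed its direction. Of their 661 alternative values, 598 kept their side of the threshold and 63 lost it. For CD11bhi YFP+ against kidney cDC1 (1) the count was 0 with no filter, with the sort code as a replicate block, with RSEM expected counts, with limma on TPM and without SR17_022, 3 with no prefix term or the compared groups alone, and 2 in BS libraries. The replicate block also gave 0 for the interaction (1) and changed no other count by over 1.5 times. Without SR17_022 it was 0 for spleen cDC1 against cDC2 (1), 4, all lower, for kidney against spleen cDC2 (0) and 2 for the interaction. Without kidney cDC2 3 and kidney cDC1 4 the counts were 15 for kidney cDC1 against cDC2 (9), 2 for kidney against spleen cDC1 (12) and 1, lower, for kidney against spleen cDC2. DESeq2 gave 2 for the interaction. Limma on TPM gave 22 for CD11bhi YFP- against F4/80hi YFP- (34), 0 for spleen cDC1 against cDC2, 1 for kidney against spleen cDC1, 17, all lower, for kidney against spleen cDC2, 8 for F4/80hi YFP- against RPM (14) and 10 for the interaction; on this scale the median of all genes moved to -0.35, -0.21, -0.21, -0.49, 0.03 and 0.27 in that order. The compared groups alone gave 0 for CD11bhi YFP+ against YFP- (1), 16 for CD11bhi YFP- against F4/80hi YFP-, 2 for CD11bhi YFP+ against kidney cDC2 (0), 7 for F4/80hi YFP- against RPM and 7 for the interaction. GS libraries alone gave 1 for kidney cDC1 against cDC2, 5 for kidney against spleen cDC1, 1, higher, for kidney against spleen cDC2 and 0 for the interaction, and BS libraries alone gave 15 for kidney cDC1 against cDC2. The cause was not tested, beyond the smaller number of libraries where groups or prefixes were used alone.

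Leaving out 1 library at a time, the counts ran from 0 to 0 for F4/80hi YFP+ against YFP- and CD11bhi YFP+ against kidney cDC2, 1 to 7 for CD11bhi YFP+ against YFP-, 24 to 37 and 26 to 38 for CD11bhi against F4/80hi YFP+ and YFP-, 24 to 32 and 36 to 39 for kidney cDC2 and cDC1 against F4/80hi YFP+, 0 to 1 for CD11bhi YFP+ against kidney cDC1, 4 to 15 for kidney cDC1 against cDC2, 0 to 1 for spleen cDC1 against cDC2, 2 to 12 for kidney against spleen cDC1, 0 to 1 for kidney against spleen cDC2, 7 to 20 for F4/80hi YFP- against RPM, 36 to 38 for spleen cDC2 against RPM, 0 to 1 for the interaction, and 41 to 42 for any difference. Where CD11bhi YFP- had 1 library left, that library was assumed to vary like the other groups.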
